A study of Mus musculus with 8 samples.

Results

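Beta-2 leukocyte integrins, their intercellular adhesion molecule (ICAM) ligands and the 2 adaptor genes that bind the beta subunit were examined in bone marrow-derived macrophages (BMDMs), which are macrophages grown from bone marrow cells in culture. The 9 genes were chosen by name: the alpha subunits Itgal, Itgam, Itgax and Itgad, the beta subunit Itgb2, the ligands Icam1 and Icam2, and the adaptors Fermt3 and Tln1. They are 9 of 54532 genes in the deposited table, and all 9 were among the 12911 genes with enough counts for a test. RNA was sequenced in 4 libraries from wildtype (WT) and 4 from Gsdmd-/- bone marrow macrophages, all without treatment. Cells were grown for 6 days in macrophage colony-stimulating factor at 20 ng/ml. WT mice were purchased female C57BL/6J mice aged 6 to 8 weeks, whereas Gsdmd-/- mice, which lack the pore-forming protein gasdermin D, came as a gift and were kept in a university facility, so that genotype and colony of origin cannot be told apart. The methods give 6 to 8 weeks and female C57BL/6J as the bone marrow donors of BMDMs without saying whether this covers the Gsdmd-/- mice. The strain on which the mutation is kept and the part of the gene that was deleted are not given in the sources used here. Nothing in the labels ties a library to a mouse, and p-values therefore measure the spread between these libraries, which may be technical.

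An integrin is a receptor made of 1 alpha and 1 beta chain in the plasma membrane. All beta-2 integrins carry the chain encoded by Itgb2, known as CD18, and differ in the alpha chain, so that no member of the family reaches the cell surface without Itgb2. Leukocytes use them to adhere to vessel walls, to migrate, to take up opsonized particles and to form contacts with other cells. The receptors rest in a bent, inactive form. Talin-1, encoded by Tln1, and kindlin-3, encoded by Fermt3, bind the tail of the beta chain inside the cell and switch it to the extended form that binds ligand, a step called inside-out activation. Bound receptors then signal through Src family kinases and Syk, which is called outside-in signalling. Inherited loss of CD18 or kindlin-3 causes leukocyte adhesion deficiency in humans.

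Gsdmd itself was lower in every library labelled Gsdmd-/-, at 75.3 ± 14.1 CPM, or counts relative to library size, in WT and 16.2 ± 1.56 CPM in Gsdmd-/- BMDMs (SD, n = 4 each). This was a log2 fold change of -2.22 (quasi-likelihood test of edgeR, adjusted p = 4.665e-05). The libraries held 14935114 to 16794810 counts in total, and 3 counts corresponded to 0.177 to 0.199 CPM. WT 2 and WT 3 stood apart from the other 6 libraries on the first principal component, which held 43.6% of the variance, with scores of 45.4 and 38.8 against -25.9 to -7.19. Both libraries also differed from WT 1 and WT 4 in marker genes. Of the 10 macrophage markers, 8 were lower in WT 2 and WT 3 than in WT 1 and WT 4, and Adgre1 and Mertk were higher, Mertk at 141, 249.6, 212 and 101 CPM in WT 1 to 4. C1qa, a complement gene of mature macrophages, was at 44.9, 4.46, 6.66 and 77.6 CPM in WT 1 to 4. Of the 10 genes listed for dendritic cells, 2 were lower in WT 2 and WT 3 than in WT 1 and WT 4 and 1 was higher. The lower ones were Ccr7, at 1.22 CPM or less in every library, and Kit, which progenitors also express, at 71.0, 11.4, 10.3 and 60.00 CPM. The higher one was Clec9a, at 17, 49.1, 45.3 and 17.6 CPM, and at 14.5 to 18.3 CPM in Gsdmd-/- libraries. Of the 8 monocyte markers, 6 were lower in WT 2 and WT 3 than in WT 1 and WT 4, among them Ly6c2 at 35.5, 1.53, 0.427 and 30.3 CPM and Ccr2 at 10.8, 2.32, 2.63 and 13.4 CPM in WT 1 to 4. All 10 macrophage markers had at least 1 CPM in every library, and their sum was 15119 to 23367 CPM in WT and 19148 to 23090 CPM in Gsdmd-/- libraries. Most of this sum came from Lyz2, which monocytes and neutrophils also express, at 12999 to 20249 CPM in WT and 16758 to 20757 CPM in Gsdmd-/- libraries.

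The 4 alpha subunit genes lie on chromosome 7 on the plus strand of the build GRCm38. Itgam, from 128062640 to 128118491, is followed after 11.1 kb by Itgax, from 128129547 to 128150657, which is followed after 3.7 kb by Itgad, from 128154376 to 128223816. Itgal, from 127296260 to 127335138, lies 727.5 kb before Itgam. The other members lie apart, with Itgb2 on chromosome 10 from 77530252 to 77565708, Icam1 on chromosome 9 from 21015985 to 21028817, Icam2 on chromosome 11 from 106377656 to 106388075, Fermt3 on chromosome 19 from 6998958 to 7019469 and Tln1 on chromosome 4 from 43531519 to 43562691. The 250 bases before the transcription start were found for 5 of the 9 members in the RefSeq promoters of GRCm38.p6, and not for Itgal, Itgad, Itgb2 and Icam2. Those of Itgam and Itgax, the only alpha subunits found, are shown because these neighbouring genes varied differently between the libraries. That of Icam1 is shown as the only ICAM found. Capitals mark the 2 motifs that were found, on either strand.
Itgam, chr7:128062390-128062639, plus strand: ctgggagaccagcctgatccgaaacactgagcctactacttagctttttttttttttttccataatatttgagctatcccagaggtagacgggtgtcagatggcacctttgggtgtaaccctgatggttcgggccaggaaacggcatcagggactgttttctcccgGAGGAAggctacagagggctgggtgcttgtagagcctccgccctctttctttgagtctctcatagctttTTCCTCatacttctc
Itgax, chr7:128129300-128129549, plus strand: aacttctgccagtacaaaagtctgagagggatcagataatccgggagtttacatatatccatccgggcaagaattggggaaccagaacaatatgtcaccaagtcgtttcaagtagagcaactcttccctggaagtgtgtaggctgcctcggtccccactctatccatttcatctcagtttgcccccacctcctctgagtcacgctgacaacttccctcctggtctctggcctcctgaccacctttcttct
Icam1, chr9:21015690-21015939, plus strand: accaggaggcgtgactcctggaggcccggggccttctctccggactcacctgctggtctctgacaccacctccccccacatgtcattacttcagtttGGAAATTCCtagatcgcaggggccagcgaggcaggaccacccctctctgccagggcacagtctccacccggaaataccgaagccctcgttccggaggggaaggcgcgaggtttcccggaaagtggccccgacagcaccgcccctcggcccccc

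The motifs searched were GAGGAA, a core bound by the myeloid transcription factor PU.1, GGAAATTCC, a form of the NF-kB site, and TATAAA, the TATA box. GAGGAA was found in Itgam, on the coding strand from -84 to -79 and on the other strand, as TTCCTC, from -15 to -10, where -1 is the base before the start. Itgax held none of the 3 motifs. Icam1 held GGAAATTCC from -153 to -145. Tln1, whose window is not shown, held GAGGAA on the opposite strand from -71 to -66, Fermt3 held none, and the motifs overlapped in no member. Among 32851 promoter windows of the same length, 23.3% held GAGGAA, 12.4% held TATAAA and 0.286% held GGAAATTCC. These matches describe letters and do not show binding.

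The levels of the genes were first compared with each other, as CPM per kb of exon averaged over the 8 libraries. Itgb2 was the highest, at 1033 ± 21.3 CPM per kb (SD, n = 8), and Itgax was next at 436 ± 48.3 CPM per kb. Tln1 (113 ± 16.9 CPM per kb) and Itgam (99.0 ± 13.1 CPM per kb) followed, and their libraries overlapped. The level of Itgam, and so its place beside Tln1, is uncertain, since 66.3% of its 50-base stretches are shared with an annotated gene over it, Gm49368, and any reads left out for this would lower it. Itgal (41.7 ± 11.2 CPM per kb), Fermt3 (40.4 ± 3.14 CPM per kb) and Icam1 (32.5 ± 3.47 CPM per kb) formed the next group, in which each gene overlapped with its neighbour. Icam2 was at 3.58 ± 0.479 CPM per kb and Itgad at 0.625 ± 0.652 CPM per kb, and their libraries did not overlap. The order within the group of Itgal, Fermt3 and Icam1 depends on the length used, since it became Fermt3 (78.2 CPM per kb), Icam1 (56.0 CPM per kb) and Itgal (52.5 CPM per kb) with the longest transcript in place of all exons.

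**Figure D1:**
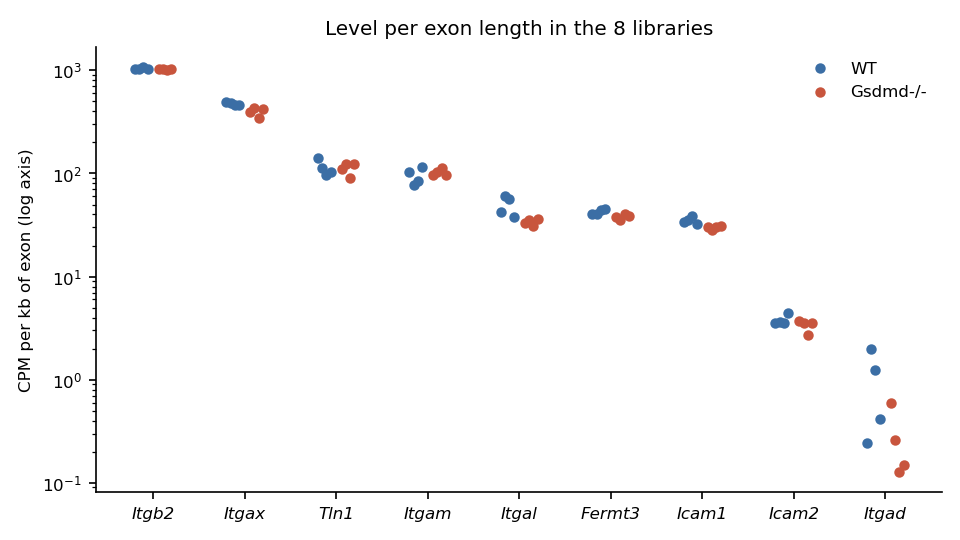
Level of each gene in CPM per kb of exon on a log axis, with 1 point per library, WT in blue and Gsdmd-/- in red. Itgb2 at a mean of 1033 CPM per kb lies above every other gene and Itgad at 0.625 CPM per kb below, and Itgad spreads most between libraries.

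Itgax supplied most of the alpha subunit RNA in both genotypes. Of the 4 alpha subunits summed per kb, Itgax made up 76.4 ± 1.12% in WT and 74.4 ± 2.58% in Gsdmd-/- BMDMs (SD, n = 4 each). Itgam made up 15.4 ± 2.83% and 19.3 ± 2.59%, and Itgal 8.02 ± 1.83% and 6.31 ± 0.132%. Itgad contributed 0.157 ± 0.128% in WT and 0.0525 ± 0.0406% in Gsdmd-/- BMDMs. WT 2 and WT 3 set most of these differences. The share of Itgal was 6.71, 9.73, 9.44 and 6.18% in WT 1 to 4 and 6.20 to 6.49% in Gsdmd-/- libraries, so that WT 1 and WT 4 lay close to the Gsdmd-/- range. Itgad was at 0.0382, 0.315, 0.206 and 0.0682% in WT 1 to 4 and at 0.0259 to 0.112% in Gsdmd-/- libraries, a range that held WT 1 and WT 4. Itgam was at 16.4, 12.4, 13.9 and 18.9% in WT 1 to 4 and at 17.5 to 23.1% in Gsdmd-/- libraries. The shares and the sum of the alpha subunits carry the same uncertainty in the level of Itgam. Itgax encodes CD11c, which is widely used as a dendritic cell marker, and Itgam encodes CD11b, which is used as a marker of macrophages and other myeloid cells. Dendritic cell markers were summed as well. They came to 59.4 to 92.5 CPM in WT and 67.4 to 84.1 CPM in Gsdmd-/- libraries, and Kit reached the highest level of the list, while Siglech had no count in any library. This sum hides opposite orders of its 2 most abundant genes. Kit, which progenitors also express, was at 11.4 and 10.3 CPM in WT 2 and WT 3 and at 46.0 to 71.0 CPM in the other libraries. Clec9a was at 49.1 and 45.3 CPM in WT 2 and WT 3 and at 14.5 to 18.3 CPM in the others. The sum of the alpha subunits was 0.592 ± 0.0202 of the Itgb2 level in WT and 0.526 ± 0.0298 in Gsdmd-/- BMDMs (SD, n = 4 each). The 4 WT values were 0.611, 0.6002, 0.564 and 0.591 and the 4 Gsdmd-/- values 0.517, 0.560, 0.489 and 0.536, so that the lowest WT library lay just above the highest Gsdmd-/- library. In bulk RNA, fewer cells that express a gene and less RNA per cell cannot be told apart.

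The genotypes were then compared gene by gene to ask whether macrophages without gasdermin D differ in the RNA of this adhesion system. None of the 9 genes passed an adjusted p under 0.05 in the quasi-likelihood test of edgeR, where 0.349% of all genes tested did. At an unadjusted p under 0.05, 4 genes were lower in Gsdmd-/- BMDMs (Itgal, Itgax, Itgad and Icam1; 7.30% of all genes) and none was higher (4.74% of all genes). With DESeq2, 1 of the 9 genes passed the adjusted p, which was Itgal, where 2.26% of all genes did, and with limma voom none did (0.333% of all genes). The volcano plot of the study used a cutoff of p under 0.05 with log2 fold changes of 0.5 or more in either direction, and p is taken here as unadjusted. Itgal and Itgad met this cutoff on the lower side, where 3.28% of all genes met it. On the higher side 0 of the 9 genes met it, where 1.54% of all genes did. In 5 genes, Itgal, Itgax, Itgb2, Icam1 and Fermt3, every Gsdmd-/- library was below every WT library, which held for 4.12% of all genes. The log2 fold change was below 0 in 8 of the 9 genes (51.5% of all genes), with a median of -0.16 beside -0.0068 over all genes tested. In an exact permutation test of a single gene, two-sided, the smallest p that 4 libraries against 4 allow is 0.0286.

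**Figure D2:**
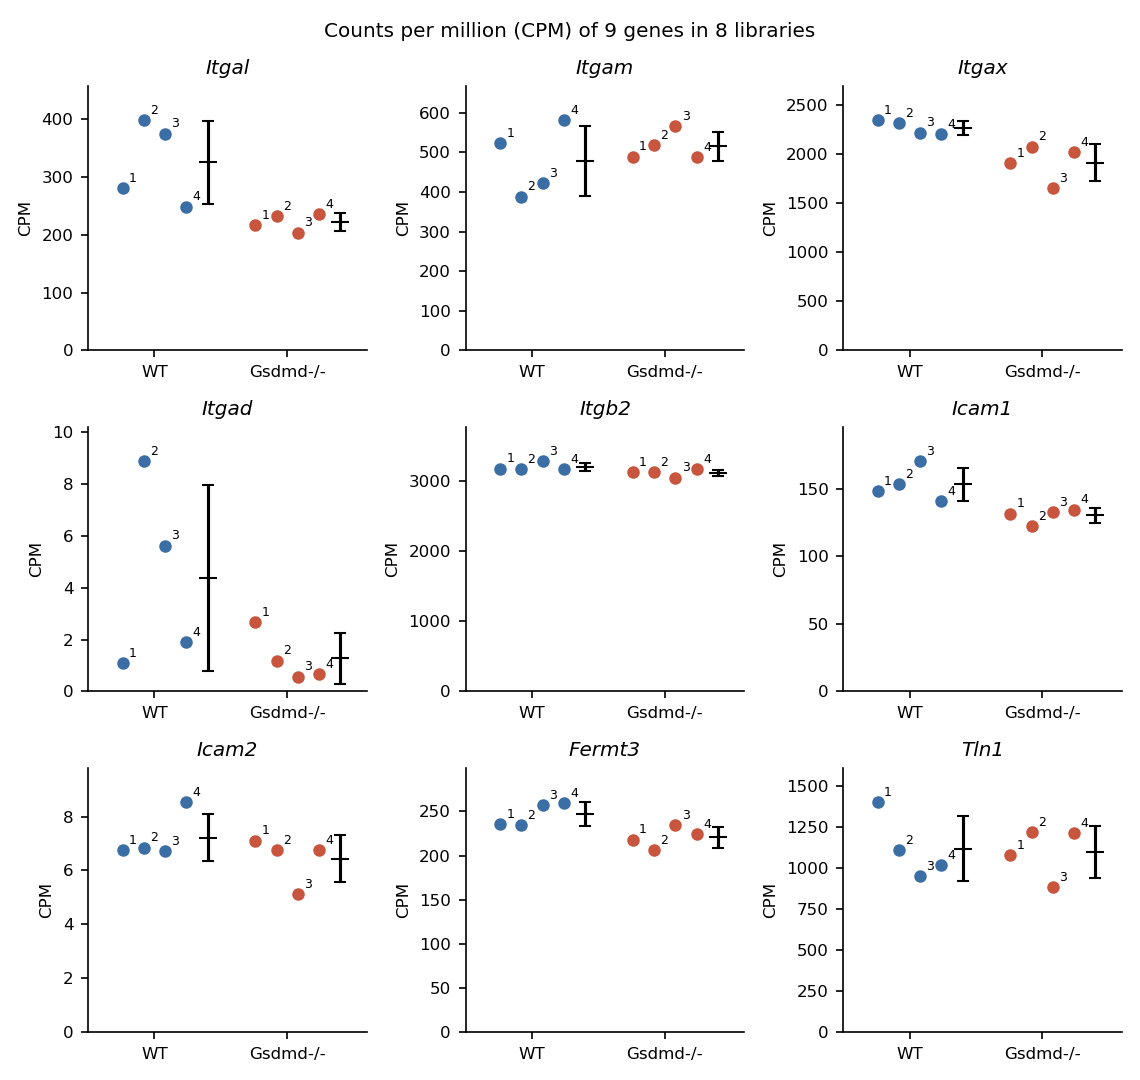
CPM of the 9 genes in each library, numbered by replicate, with WT in blue and Gsdmd-/- in red. Black bars show the mean and SD of 4 libraries, and each axis starts at 0. Itgal separates the genotypes with WT 2 and WT 3 highest, while Itgam is lowest in these 2 libraries.

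Itgal encodes CD11a, the alpha chain of the integrin LFA-1, which binds ICAMs and supports firm adhesion and cell contacts. It was at 280, 398, 375 and 249 CPM in WT 1 to 4 and at 216, 233, 204 and 236 CPM in Gsdmd-/- 1 to 4. WT 2 and WT 3 were the highest, and the lowest WT library still lay above the highest Gsdmd-/- library. The mean was 326 ± 72.1 CPM in WT and 222 ± 15.2 CPM in Gsdmd-/- BMDMs (SD, n = 4 each), which is 68.3% of the WT mean. Its log2 fold change was -0.55 (SE 0.146, 95% interval -0.88 to -0.23), with an unadjusted p of 0.00348 and an adjusted p of 0.178 from edgeR. The exact permutation test gave 0.0286. With 1 library left out, the unadjusted p stayed under 0.05 in 8 of 8 fits, with log2 fold changes from -0.66 without WT 4, where the adjusted p was 0.0484, to -0.45 without WT 2. Itgal no longer met the cutoff of p and fold change without WT 2 or without WT 3 (-0.48). Without both WT 2 and WT 3 the log2 fold change was -0.26 (SE 0.101, unadjusted p = 0.0307, adjusted p = 0.307 from edgeR). Leaving out these highest libraries keeps the lowest WT library, so apart from rescaling it could not make the genotypes overlap. How far the marker genes that differed in WT 2 and WT 3 bear on the difference in Itgal was not tested.

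Itgam encodes CD11b, the alpha chain of Mac-1, also called complement receptor 3, which takes up particles coated with complement. It was the only member with a positive log2 fold change, and the genotypes overlapped. Its values were 523, 389, 423 and 581 CPM in WT 1 to 4 and 489, 518, 567 and 488 CPM in Gsdmd-/- 1 to 4. WT 2 and WT 3 held the lowest values of all 8 libraries, whereas for Itgal they held the highest. The mean was 479 ± 88.8 CPM in WT and 516 ± 36.8 CPM in Gsdmd-/- BMDMs (SD, n = 4 each). The log2 fold change was 0.11 (SE 0.129, 95% interval -0.18 to 0.39, adjusted p = 0.788 from edgeR), and the exact permutation test gave 0.457. It turned to -0.10 without WT 2 and WT 3 (adjusted p = 0.757). With 1 library left out, the log2 fold change of Itgam ran from 0.014 without WT 2 to 0.22 without WT 4. Of the 50-base stretches of its exons, 66.3% also occur in Gm49368, a protein-coding gene annotated over it on the same strand, which had 95 counts in all 8 libraries. How such reads were assigned is not given in the sources used here.

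Itgax encodes CD11c, the alpha chain of complement receptor 4. It was the alpha subunit with the highest level and separated the genotypes by a small margin. WT 1 to 4 were at 2346, 2320, 2221 and 2206 CPM, and Gsdmd-/- 1 to 4 at 1910, 2080, 1653 and 2024 CPM. The WT libraries lay close together and WT 2 and WT 3 did not stand out, whereas the Gsdmd-/- libraries spread more widely, with Gsdmd-/- 3 the lowest. The mean was 2273 ± 70.2 CPM in WT and 1917 ± 189 CPM in Gsdmd-/- BMDMs (SD, n = 4 each), or 84.3% of WT. Itgax had a log2 fold change of -0.25 (SE 0.0930, 95% interval -0.45 to -0.04), with an unadjusted p of 0.0240 and an adjusted p of 0.337 from edgeR, and the exact permutation test gave 0.0286. The value was also -0.25 without WT 2 and WT 3 (unadjusted p = 0.0420, adjusted p = 0.352). The unadjusted p was under 0.05 in 5 of 8 fits that left out 1 library (0.0515, 0.0556 and 0.0663 without WT 1, Gsdmd-/- 1 or Gsdmd-/- 3), and the log2 fold change moved to -0.18 without Gsdmd-/- 3. Of its 50-base stretches, 8.02% are shared with Itgad, its close paralog.

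Itgad encodes CD11d, which is known from macrophages of some tissues such as the spleen. Its level was low, and its counts came mostly from a pair of WT libraries. The libraries held 18, 145, 92 and 31 counts in WT 1 to 4 and 45, 20, 9 and 10 counts in Gsdmd-/- 1 to 4, or 1.10, 8.86, 5.62 and 1.89 CPM against 2.67, 1.18, 0.571 and 0.663 CPM. These were WT 2 and WT 3, and WT 1 was below 2 of the Gsdmd-/- libraries, so that the genotypes overlapped. The mean was 4.37 ± 3.59 CPM in WT and 1.27 ± 0.968 CPM in Gsdmd-/- BMDMs (SD, n = 4 each). Its log2 fold change of -1.76 (SE 0.670, 95% interval -3.25 to -0.27) had an unadjusted p of 0.0247 and an adjusted p of 0.341 from edgeR, and the exact permutation test gave 0.143. It became -0.21 without WT 2 and WT 3 (unadjusted p = 0.721), and leaving out 1 library moved it from -2.41 without Gsdmd-/- 1 to -1.16 without WT 2, with an unadjusted p under 0.05 in 3 of 8 fits. The other 5 fits, without WT 2, WT 3 or Gsdmd-/- 2, 3 or 4, gave unadjusted p-values of 0.0519 to 0.0939. Of its 50-base stretches, 19.7% occur in other genes, and its exons overlap Cox6a2 on the opposite strand (244 counts in all). The library kit does not mark strand, so that reads of these genes cannot be told apart there.

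The tested genes with a mean of at least 10 CPM whose values over the 8 libraries were most like those of Itgad were Ear2, Rbp4 and Tmem273. The root mean square difference of centred log2 CPM was 0.535, 0.680 and 0.703, respectively, among 8224 genes. Ear2, which encodes a ribonuclease of eosinophils and macrophages, was at 7.49, 27.9, 30.7 and 11.9 CPM in WT 1 to 4 and 9.72, 10.4, 7.10 and 4.91 CPM in Gsdmd-/- 1 to 4. Like Itgad, all 3 genes were highest in WT 2 and WT 3. The other 8 members ranged over less than 1 on the log2 scale.

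**Figure D3:**
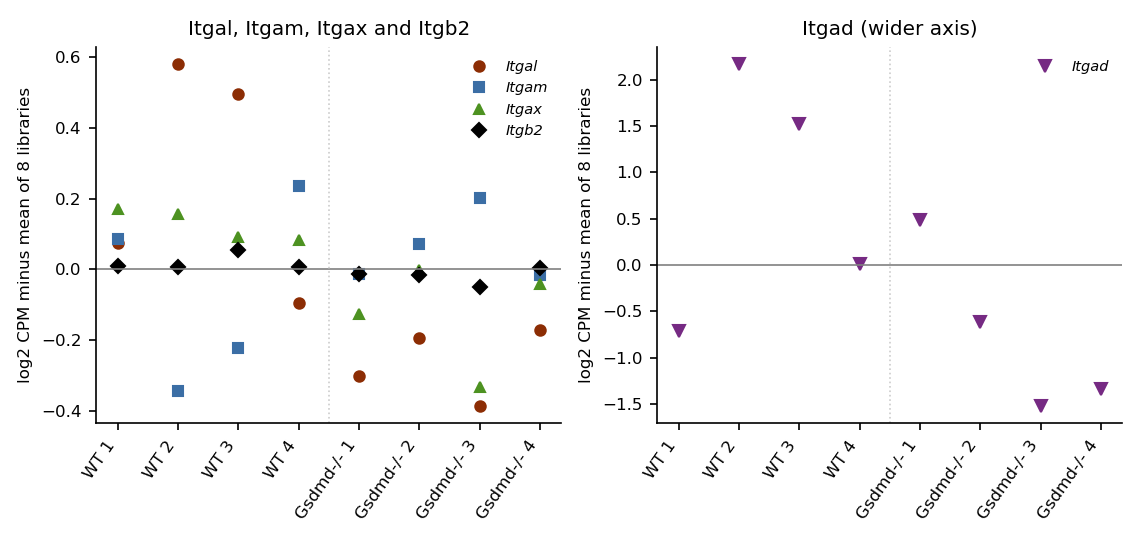
Log2 CPM of the alpha subunits and Itgb2 in each library, less the mean of the 8 libraries, with Itgad on a wider axis. Itgal and Itgad are high in WT 2 and WT 3, Itgam is low there, Itgax is above its mean in all 4 WT libraries, and Itgb2 stays close to 0 throughout.

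Itgb2, the shared beta chain, was nearly constant. It was at 3173, 3167, 3274 and 3168 CPM in WT 1 to 4 and at 3121, 3117, 3044 and 3160 CPM in Gsdmd-/- 1 to 4. Although the lowest WT library was above the highest Gsdmd-/- library, the gap was only from 3160 to 3167 CPM and closed with another scaling of the libraries (RLE or upper quartile). The mean was 3196 ± 52.2 CPM in WT and 3111 ± 48.2 CPM in Gsdmd-/- BMDMs (SD, n = 4 each). The log2 fold change was -0.04 (SE 0.0745, 95% interval -0.20 to 0.13, adjusted p = 0.876 from edgeR), while the exact permutation test, which uses only the spread of this gene, gave 0.0286. Its coefficient of variation over the 8 libraries was 2.06%, and 0.0310% of all genes tested had a lower one.

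Among the ligands, Icam1 was lower in Gsdmd-/- BMDMs by a small amount and Icam2 was low in both genotypes. ICAM-1 is an inducible surface protein that binds LFA-1 and Mac-1, and ICAM-2 is a constitutive ligand known mainly from endothelium. Icam1 was at 148, 154, 170 and 141 CPM in WT 1 to 4 and at 132, 122, 133 and 135 CPM in Gsdmd-/- 1 to 4. All Gsdmd-/- libraries lay below all WT libraries, with WT 3 the highest. The mean was 153 ± 12.4 CPM in WT and 130 ± 5.57 CPM in Gsdmd-/- BMDMs (SD, n = 4 each), or 85.1% of WT, and the log2 fold change was -0.23 (SE 0.0823, 95% interval -0.42 to -0.05). Its unadjusted p was 0.0172 and its adjusted p 0.305 from edgeR, and the exact permutation test gave 0.0286. Without WT 2 and WT 3 the log2 fold change was -0.15 (unadjusted p = 0.118). The unadjusted p was under 0.05 in 6 of 8 fits that left out 1 library, and was 0.0629 without WT 3 and 0.0540 without Gsdmd-/- 2. Icam2 was at 6.76, 6.84, 6.72 and 8.52 CPM in WT 1 to 4 and at 7.11, 6.74, 5.14 and 6.77 CPM in Gsdmd-/- 1 to 4. The genotypes overlapped, with a log2 fold change of -0.16 (SE 0.152, 95% interval -0.50 to 0.18, adjusted p = 0.725 from edgeR), and of -0.25 without WT 2 and WT 3 (adjusted p = 0.648). For Icam2 this was -0.070 without WT 4 and -0.067 without Gsdmd-/- 3. Of the 8 endothelial markers, Kdr was at 21.1 to 77.8 CPM and Cdh5 at 2.78 to 5.86 CPM in the 8 libraries, and Tek and Cldn5 had no count in any library. In this list 1 gene, Kdr, was lower in WT 2 and WT 3 than in WT 1 and WT 4, and 2, Esam and Tie1, were higher. Tie1 was at 0.122, 1.89, 1.83 and 0.183 CPM in WT 1 to 4.

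The 2 adaptors differed little between the genotypes. Fermt3 was at 236, 235, 257 and 260 CPM in WT 1 to 4 and at 218, 206, 234 and 224 CPM in Gsdmd-/- 1 to 4. WT 1 and WT 2 lay only just above Gsdmd-/- 3, and upper-quartile scaling made the genotypes overlap. The mean was 247 ± 13.3 CPM in WT and 221 ± 11.8 CPM in Gsdmd-/- BMDMs (SD, n = 4 each), and the log2 fold change was -0.16 (SE 0.0783, 95% interval -0.33 to 0.01, unadjusted p = 0.0658, adjusted p = 0.462 from edgeR). The exact permutation test gave 0.0286. Tln1 was at 1397, 1108, 949 and 1016 CPM in WT 1 to 4 and at 1079, 1217, 882 and 1212 CPM in Gsdmd-/- 1 to 4. The highest library was WT 1 and the lowest Gsdmd-/- 3, with the others intermixed. The mean was 1117 ± 198 CPM in WT and 1097 ± 157 CPM in Gsdmd-/- BMDMs (SD, n = 4 each), and the log2 fold change was -0.03 (SE 0.143, 95% interval -0.34 to 0.29, adjusted p = 0.959 from edgeR). Its direction was not stable, with 0.10 without WT 1, 0.07 without Gsdmd-/- 3 and -0.14 without WT 2 and WT 3 (adjusted p = 0.808). The exons of Tln1 overlap those of Creb3 on the opposite strand, which had 7344 counts in all, and reads of the 2 genes cannot be told apart there for the same reason. The exact permutation test gave 0.886.

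**Figure D4:**
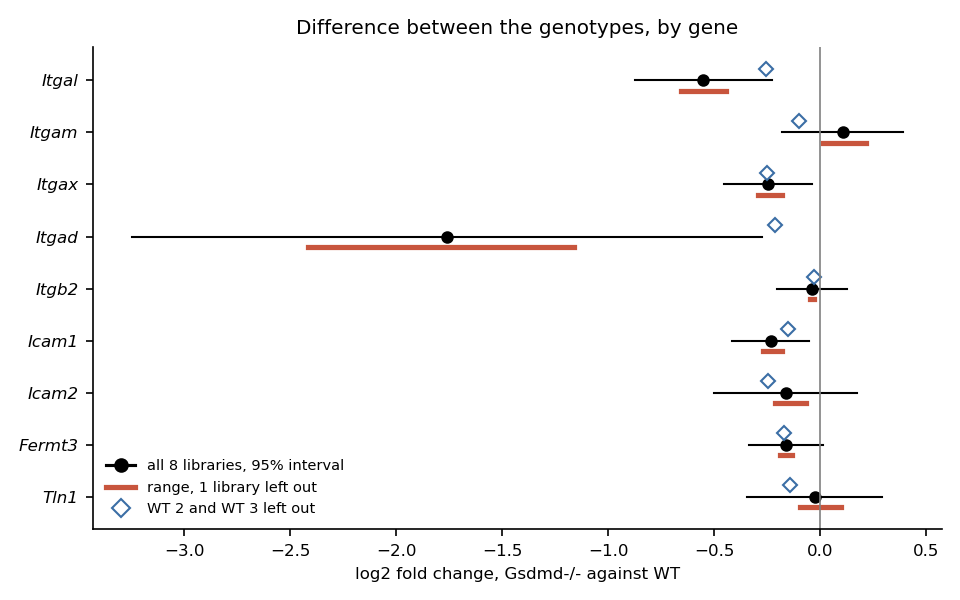
Log2 fold change of Gsdmd-/- against WT for the 9 genes. Black points and lines give the estimate from 8 libraries with its 95% interval, red lines the range when 1 library was left out, and open diamonds the value without WT 2 and WT 3. Itgad moves from -1.76 to -0.21 and Itgal from -0.55 to -0.26 without these libraries, while Itgax stays at -0.25.

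The other genes of the pathway were read from 8 lists by role, which held 146 genes, of which 122 were tested. None passed an adjusted p under 0.05 with edgeR, beside 0.349% of all genes tested. At an unadjusted p under 0.05, 4 were higher and 17 lower (4.74% and 7.30% of all genes). With DESeq2 6 passed the adjusted p (2.26% of all genes), and with limma voom none did (0.333%). The cutoff of p and fold change was met by 2 genes on the higher side (Itgb3 and Rapgef3) and by 5 on the lower side (Dock8, Cd81, F11r, Sipa1l1 and Esam), beside 1.54% and 3.28% of all genes. The median log2 fold change over the 122 genes was -0.06, with 44 above and 78 below 0 (51.5% of all genes below 0). The lists below are read beside these shares of all genes. With 1 library left out, Itgb3 and Rapgef3 met the cutoff in 8 of 8 fits, Sipa1l1 in 7 (not without WT 4), Dock8 in 6 (not without WT 1 or Gsdmd-/- 3), Cd81 in 4, and F11r and Esam in 2, those without WT 1 or WT 4.

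Among the 8 other ligands of beta-2 integrins that were tested, 7 were below 0, and the median was -0.43. The 1 at the cutoff was F11r, which encodes the junctional adhesion molecule JAM-A. F11r was at 8.82, 22.9, 19.5 and 11.1 CPM in WT 1 to 4 and at 9.82 to 10.5 CPM in Gsdmd-/- libraries. Only WT 2 and WT 3 were well above the Gsdmd-/- libraries, and its log2 fold change of -0.61 (adjusted p = 0.398 from edgeR) became 0.04 without them.

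Genes of inside-out activation act from the small GTPase Rap1 to talin. Of 24 tested, 4 were lower and 1 was higher at an unadjusted p under 0.05 (7.30% and 4.74% of all genes), and the median log2 fold change was -0.13. The list holds genes that load Rap1 as well as genes that inactivate it, so its median gives no direction of activation. Sipa1l1, which encodes a protein that inactivates Rap1, was at 8.16, 6.72, 6.29 and 9.31 CPM in WT 1 to 4 and at 4.63 to 5.86 CPM in Gsdmd-/- libraries, without overlap (log2 fold change -0.58, adjusted p = 0.221 from edgeR, and -0.77 with adjusted p = 0.0588 without WT 2 and WT 3). Rapgef3, an exchange factor that loads Rap1 in response to cyclic AMP, was low, with means of 0.442 ± 0.257 CPM in WT and 1.19 ± 0.481 CPM in Gsdmd-/- BMDMs (SD, n = 4 each). Its log2 fold change was 1.42 (adjusted p = 0.271 from edgeR) and 1.94 without WT 2 and WT 3. The genotypes overlapped, with WT 2 at 0.794 CPM above Gsdmd-/- 3 at 0.634 CPM, and WT 1 was at 0.183 CPM, which is 3 counts. Genes named after their values were seen are given next. The other 3 genes that were lower at an unadjusted p under 0.05 were Cytip (log2 fold change -0.48, adjusted p = 0.168 from edgeR, the lowest of the list), Rasgrp1 (-0.50, adjusted p = 0.185) and Sipa1 (-0.23, adjusted p = 0.246). Cytip encodes a partner of cytohesin-1, Rasgrp1 an exchange factor of Ras and Sipa1 a protein that inactivates Rap1. With DESeq2 Cytip and Rasgrp1 passed the adjusted p (0.0239 and 0.0489). Without WT 2 and WT 3 the values were -0.45, -0.54 and -0.19, and Sipa1 then had an unadjusted p of 0.0531. Of the genes of Rap1 itself and its link to talin, the log2 fold change was 0.25 for Rap1b (adjusted p = 0.449), 0.11 for Rap1a (adjusted p = 0.779) and -0.04 for Apbb1ip, which encodes that link, RIAM (adjusted p = 0.868). Without WT 2 and WT 3, Rap1b was at 0.07, Rap1a turned to -0.02 and Apbb1ip was at -0.04. With 1 library left out, Rap1b ran from 0.16 without WT 2 to 0.34 without WT 4. Rap1a ran from 0.018 without Gsdmd-/- 3 to 0.22 without WT 4, and Apbb1ip from -0.071 without Gsdmd-/- 4 to -0.011 without Gsdmd-/- 3. Of the 7 tested inhibitors of integrin activation, none had an unadjusted p under 0.05, and their median was -0.08.

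In outside-in signalling, 21 of 29 genes were below 0, 5 were lower at an unadjusted p under 0.05 (7.30% of all genes) and 0 were higher, and the median was -0.09. Dock8, an exchange factor for Cdc42 in leukocyte migration, was the only gene of this list at the cutoff. It was at 201, 184, 163 and 146 CPM in WT 1 to 4 and at 113, 124, 99.3 and 134 CPM in Gsdmd-/- 1 to 4, and the genotypes did not overlap. Its log2 fold change was -0.56 (SE 0.123, adjusted p = 0.113 from edgeR) and was -0.57 without WT 2 and WT 3. The lowest adjusted p of all 122 genes belonged to Ptpn6, which encodes the phosphatase SHP-1 and was named after its value was seen. Ptpn6 was at 113, 121, 132 and 122 CPM in WT 1 to 4 and at 86.4, 83, 95.1 and 92.4 CPM in Gsdmd-/- 1 to 4, a log2 fold change of -0.45 (SE 0.0812, adjusted p = 0.0564 from edgeR). Syk, which couples the receptors to downstream signals and was named in the same way, showed a log2 fold change of -0.06 (adjusted p = 0.835).

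Of the 9 other leukocyte integrin subunits tested, Itgb3 was the 1 at the cutoff. It encodes the beta chain of the vitronectin receptor and was at 95.8, 139, 125 and 68.1 CPM in WT 1 to 4 and at 166, 193, 160 and 202 CPM in Gsdmd-/- 1 to 4, without overlap. Its log2 fold change was 0.75 (SE 0.194, adjusted p = 0.174 from edgeR), and it was 1.13 without WT 2 and WT 3 (adjusted p = 0.0121). Itgb1, the beta chain of most other integrins and named after its values were seen, averaged 564 ± 16.1 CPM in WT and 580 ± 18.8 CPM in Gsdmd-/- BMDMs (SD, n = 4 each), and its log2 fold change was 0.04 (adjusted p = 0.867), or 0.07 without WT 2 and WT 3. The 19 linkers of the adhesion complex to actin had a median of 0.03, with 1 higher and 2 lower at an unadjusted p under 0.05 (4.74% and 7.30% of all genes) and 0 at the cutoff.

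Among the 12 transcription factors known to bind promoters of myeloid integrin genes, 2 were lower at an unadjusted p under 0.05 (7.30% of all genes), 0 were at the cutoff and the median was -0.05. These 2 were Runx1 (log2 fold change -0.37, adjusted p = 0.297) and Cebpa (log2 fold change -0.37, adjusted p = 0.402). Without WT 2 and WT 3, Runx1 was at -0.54 (unadjusted p = 0.00166) and Cebpa at -0.05 (unadjusted p = 0.697). Cebpa was also above an unadjusted p of 0.05 in 5 of 8 fits that left out 1 library, those without WT 2, WT 3 or Gsdmd-/- 1, 2 or 4. Spi1, which encodes PU.1 and, like these 2, was named after its values were seen, averaged 545 ± 80.7 CPM in WT and 526 ± 49.7 CPM in Gsdmd-/- BMDMs (SD, n = 4 each), and its log2 fold change was -0.05 (adjusted p = 0.899), or -0.19 without WT 2 and WT 3 and 0.05 without WT 4. Of the 14 other adhesion molecules, Cd81, a tetraspanin, and Esam, an endothelial adhesion molecule, were at the cutoff. For Cd81 the log2 fold change was -0.51 (adjusted p = 0.358), which was -0.18 without WT 2 and WT 3. Esam was at 0.37, 5.87, 4.95 and 0.37 CPM in WT 1 to 4 and at 0.36 to 0.93 CPM in Gsdmd-/- libraries, and its log2 fold change of -2.001 (adjusted p = 0.382) turned to 0.95 without WT 2 and WT 3.

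**Figure D5:**
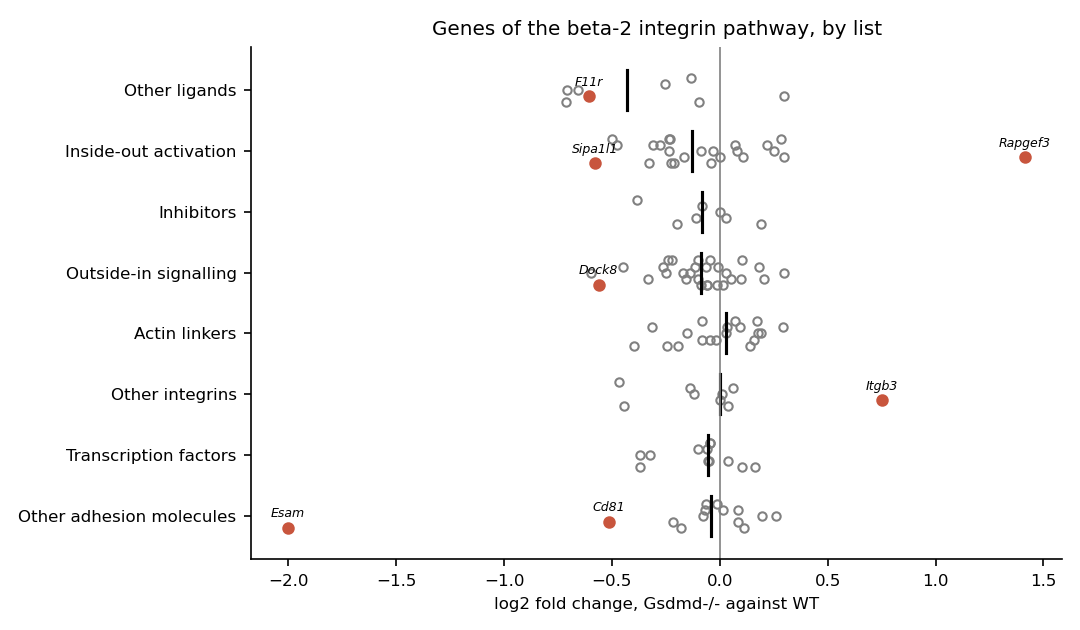
Log2 fold change of Gsdmd-/- against WT for 122 tested genes in 8 lists. Each point is a gene, black bars are list medians, and filled red points are the 7 genes at the cutoff of p and fold change. Medians lie between -0.43 in the other ligands and 0.03 in the actin linkers.

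Markers of other cell types were summed in each library. The neutrophil list summed to 5.36 to 7.94 CPM in WT and 6.93 to 7.69 CPM in Gsdmd-/- libraries, with Ly6g and Retnlg without a count, and the list of T and NK cells to 3.04 to 4.64 CPM and 3.36 to 4.21 CPM, with Cd3d and Ncr1 without a count. These cell types are known to express Itgam or Itgal. The monocyte list summed to 75.2 to 198 CPM in WT, on both sides of 95.6 to 117 CPM in Gsdmd-/- libraries, and Chil3 was its most abundant gene. As with Itgam, 6 of its 8 genes were lower in WT 2 and WT 3 than in WT 1 and WT 4, the reverse of the order of Itgal and Itgad. The B cell list summed to 1.34 to 9.34 CPM and 0.597 to 1.78 CPM, its upper end from Ighm at 8.98 CPM in WT 2 and 8.73 CPM in WT 3. The endothelial list summed to 34.1 to 70.3 CPM in WT and 50.05 to 82.0 CPM in Gsdmd-/- libraries, most of it from Kdr. The stromal, megakaryocyte and mast cell lists reached 4.69, 35.5 and 10.2 CPM in any library, and the part of these cells in the differences above was not tested.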

How the data were processed

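According to the paper, the BMDMs were taken up in TRIzol, and a company, Novogene, isolated the RNA, made the libraries and sequenced them. The libraries were made with a TruSeq kit, which does not mark strand, and the deposited table holds read counts per gene, not normalized. The build was mm10 per the submitters' processing notes. The aligner and the counting tool are not given in the sources used here. Each of the 8 columns matched 1 sample by its label, and positions and exon lengths came from GENCODE M21 on GRCm38 (54495 of 54532 genes found by identifier). The 9 genes and the pathway and marker lists were chosen with earlier results of these data known.

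Scaling was by TMM and low genes were removed by filterByExpr, and Gsdmd-/- was compared with WT by the quasi-likelihood test of edgeR 4.0.16 in R 4.3.3, two-sided, with genotype alone in the model and Benjamini-Hochberg adjustment over 12911 genes. The study's figure legend names edgeR and its methods limma, without covariates. The 2 call rules were an adjusted p under 0.05, and an unadjusted p under 0.05 with a log2 fold change of 0.5 or more in either direction. CPM use TMM library sizes, log2 CPM a prior count of 2, and 3 counts are taken as the floor, which covers counting error only. Named genes were Gsdmd, the 9 genes, up to 3 genes per pathway list at the second rule with the lowest p (and any with an adjusted p under 0.05), and, for genes with a range over 1 on the log2 scale, the 3 genes of most similar pattern. The text says where another pathway gene was picked with its values known. No set test was run.

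Alternatives were RLE and upper-quartile scaling, no filter, a minimum of 10 counts in every library, limma voom 3.58.1, DESeq2 1.42.0, a log2 fold change of 1 or more, a replicate block, leaving out each library, leaving out WT 2 and WT 3 together, and the longest transcript as length. Replicates of a genotype differed by more than sampling noise (chi-square per degree of freedom of 5.84 to 80.7).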

Additional observations from a re-analysis of the deposited data

Results flagged for a closer look

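In groups of 4 libraries, the library at 1 end was compared with the spread of the group, and 2 values among the 9 genes stood apart by Dixon's ratio at the 95% level. Of all 76 groups examined (Gsdmd, the 9 genes and the named pathway genes, 38 in all, in 2 genotypes), these 2 passed, and chance passes about 1 in 20. For Itgb2, WT 3 at 3274 CPM lay above the other WT libraries at 3167 to 3173 CPM (ratio 0.944), and the 4 WT values differed by little in absolute terms. For Icam2, WT 4 at 8.52 CPM lay above 6.72 to 6.84 CPM in the other WT libraries (ratio 0.930). Neither gene passed the adjusted p or the cutoff of p and fold change with these libraries in or left out.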

How the results depend on the processing

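Of the values recomputed under the alternatives (counts, medians, shares, and the fold changes of the 9 genes, Gsdmd and the pathway genes given above), 602 kept their direction and their side of the adjusted p or, without a test, stayed within the limits set for a move, 53 moved, 8 turned direction and 12 passed the adjusted p only under the alternative. This tally takes no account of the size of a fold change or of the cutoff of p and fold change. Of the genes at that cutoff, Itgal, Itgad, Cd81, Dock8, Esam, F11r and Sipa1l1 were lost in at least 1 fit that left out 1 library, Esam and F11r in 6 of 8, and Rapgef3 was lost with at least 10 counts in every library. Itgad moved from -1.76 to -0.21 without WT 2 and WT 3. With 1 library left out, genes with an adjusted p under 0.05 ranged from 8 to 28 higher and from 5 to 56 lower, against 18 and 27 with all libraries, and genes at the cutoff of p and fold change from 155 to 318 higher and from 297 to 704 lower, against 199 and 424. The upper ends were all reached without WT 4. Without a filter these counts were 44, 65, 421 and 783, with DESeq2 the adjusted counts were 105 and 187, without WT 2 and WT 3 they were 53 and 108 with 405 higher at the cutoff, and at a log2 fold change of at least 1 the cutoff left 59 and 140.

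Of the 9 genes, Itgal passed the adjusted p with DESeq2 (0.0288) and without WT 4 (0.0484), so that 0 to 1 passed when 1 library was left out. Of the 2 at the cutoff, Itgal and Itgad, 1 was left with at least 10 counts in every library, with limma voom or at a log2 fold change of at least 1, 0 without WT 2 and WT 3, and 0 to 2 with 1 library left out (0 without WT 2 or without WT 3). Upper-quartile scaling and no filter left 3 genes without overlap in place of 5. Itgam turned to -0.10 without WT 2 and WT 3, and Tln1 to 0.10 without WT 1 and to 0.07 without Gsdmd-/- 3. With the longest transcript as length, the sum of the alpha subunits over Itgb2 was 0.637 in place of 0.559 over 8 libraries.

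In the pathway lists, 1 gene passed the adjusted p with RLE, 2 without a filter, 6 with DESeq2, 5 without WT 2 and WT 3 (Itgb3, C3, Fgr, Fyb and Rasgrp4) and 0 to 1 with 1 library left out. The cutoff held 1 higher gene with at least 10 counts in every library, 12 lower genes without WT 2 and WT 3, and 3 to 7 lower genes with 1 library left out. Of the pathway genes, F11r turned to 0.036, Rap1a to -0.019 and Esam to 0.95 without WT 2 and WT 3. With 1 library left out, Syk ran from -0.12 to 0.0040, above 0 without Gsdmd-/- 3, and Spi1 from -0.13 to 0.046, above 0 without WT 4. Dock8 passed the adjusted p without a filter, with DESeq2 and without WT 4, Ptpn6 with RLE and DESeq2, Cytip and Rasgrp1 with DESeq2, and Itgb3 without a filter, with DESeq2 and without WT 2 and WT 3. The cause of these moves was not tested.

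Deviations from the genotype means had correlations of 0.0268, 0.182, 0.0412 and -0.201 over genes between libraries with the same number. Between libraries with different numbers they ran from -0.253 to 0.333. The labels do not say whether a number marks a shared batch, and these correlations cannot settle it, since the 2 ranges overlap. A replicate block gave 9 genes higher and 16 lower at an adjusted p under 0.05 and changed no call of the 9 genes, with Itgal at -0.53 (adjusted p = 0.309 from edgeR). Itgad and Icam2, with few counts, are the members most limited by depth.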
